A study of Mus musculus with 9 samples.

Results

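The 3 libraries of fresh mouse oocytes, out of 9 in the series, were described here by the absolute level of each gene. They were chosen by their treatment label alone, with no use of measured values, and the groups compared with them are the 3 cryopreservation-1 and the 3 cryopreservation-2 libraries. Fresh oocytes were not frozen. Cryopreservation-1 used a cryotop carrier and a solution of EG at 15%, DMSO at 15% and sucrose at 0.5 M, while cryopreservation-2 used a straw with EG at 17.5%, trehalose at 1 M and PVA/Fe3O4/GO nanoparticles. Strain, age of the animals, stage of the oocytes (immature or mature), number of oocytes per library and any pooling are stated in none of the sources used here. All groups shared the same selection of poly(A) RNA, so a level here is that of polyadenylated RNA. The labels do not say that the replicates came from separate animals or pools, so each p-value reflects the spread between the libraries at hand, and that spread may be technical.

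A growing oocyte makes and stores messenger RNA for months, then stops transcription before it matures. From then until the genome of the embryo is switched on, meiosis, fertilization and the first cleavage run on this store. Its messages are masked and woken by changes in the length of their poly(A) tails, and are cleared after maturation by deadenylation. The oocyte also makes the zona pellucida, its glycoprotein coat, and secretes growth factors that direct the surrounding follicle cells.

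Levels are given as FPKM, which is scaled to the length of the gene and the depth of the library and allows genes to be compared with each other. Each gene's share is its FPKM as a percent of the library's summed FPKM. That sum was 302406, 330768 and 296483 in fresh replicates 1, 2 and 3, so orders of the libraries by FPKM carry this difference in scale. The table held 26358 genes. Fresh replicates 1, 2 and 3 had 80025618, 80100460 and 73899130 counts, so that a count of 0 allows up to 3 counts, or 0.0375 to 0.0406 CPM (counts scaled to the library total), by counting error alone. The cryopreservation-1 and cryopreservation-2 libraries had 49337232 to 80877288 counts.

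The oocyte label held against its markers. Gdf9, a growth factor that oocytes send to follicle cells, stood at 4303, 5260 and 3548 FPKM in fresh replicates 1, 2 and 3, the sixth highest mean of all genes. Its partner Bmp15 stood at 271, 249 and 294 FPKM (rank 161), and Zp3, a protein of the zona pellucida, at 90.5, 122 and 55.4 FPKM (rank 492). Bmp15 was close to even across the libraries, while Gdf9 and Zp3 were highest in replicate 2 and lowest in replicate 3. Markers of immune, blood and sperm cells were mostly low or absent, while some markers of cumulus, granulosa, stromal and endothelial cells were not. Of the 15 cumulus and granulosa markers measured, 4 reached 1 FPKM, beside 8630 of all 26358 genes by mean level. Their median was 0.280 FPKM, against 0.199 for all genes. The list took 0.0426 ± 0.00569% of summed FPKM (SD, n = 3), but 0.117% of counts and 0.112% of counts per GENCODE length. Serpine2, a protease inhibitor, made up most of it at 92.7, 128 and 123 FPKM, above Zp3 in every fresh library. Cyp19a1, the aromatase, stood at 12.9, 11.8 and 11.5 FPKM, while the cumulus matrix gene Ptx3 had 0 counts in every fresh library. Of 13 immune and blood markers 10 had 0 counts in all 3 libraries, including the globins and Ptprc, and the list took 0.00269 ± 0.000468% (0.00108% of counts). C1qb at 6.08, 6.07 and 3.75 FPKM and Cd68 at 3.60, 2.51 and 3.02 FPKM were its 2 members above 1 FPKM. Of 10 stromal and endothelial markers 3 reached 1 FPKM, led by Pecam1 at 12.4, 11.5 and 20.6 FPKM, and of 3 sperm and spermatid markers none did. Of the markers listed for these 4 kinds of cells, 8 of 23, 1 of 14, 5 of 15 and 3 of 6 were not among the genes of the table. The table held no gene with 0 counts in all 9 libraries, so these markers may have gone undetected, which was not tested. The marker fractions and the values for all genes therefore cover only genes with a count somewhere in the series. In such bulk libraries fewer cells of a type and less RNA per cell cannot be told apart.

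Promoter sequences of 5 of these genes are printed because they show the letters in front of some of the most abundant transcripts and of 2 of the markers. H1f8, Tcl1 and Oog3 stood at ranks 1, 3 and 5, and Bmp15 and Zp3 are markers of the oocyte. Each is the stretch of 250 bases that ends at the RefSeq start site, 5′ to 3′ on the gene's own strand, from RefSeq on GRCm38.p6. Capitals mark every match to the E-box CANNTG on either strand (the motif is its own reverse complement), the kind of site bound by FIGLA, the basic helix-loop-helix factor that drives the zona genes. H1f8 lies on the plus strand (chr6:115944681-115944930), Tcl1 on the minus strand (chr12:105222738-105222987), Oog3 on the minus strand (chr4:144162652-144162901), Bmp15 on the minus strand (chrX:6320725-6320974) and Zp3 on the plus strand (chr5:135979855-135980104). Promoters of Zp1, Zp2, Gdf9 and Bcl2l10 were not used here.
H1f8: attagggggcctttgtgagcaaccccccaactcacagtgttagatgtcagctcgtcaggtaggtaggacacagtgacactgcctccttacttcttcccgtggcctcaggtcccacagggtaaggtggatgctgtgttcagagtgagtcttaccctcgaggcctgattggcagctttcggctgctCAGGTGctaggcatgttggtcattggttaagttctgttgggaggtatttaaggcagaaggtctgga
Tcl1: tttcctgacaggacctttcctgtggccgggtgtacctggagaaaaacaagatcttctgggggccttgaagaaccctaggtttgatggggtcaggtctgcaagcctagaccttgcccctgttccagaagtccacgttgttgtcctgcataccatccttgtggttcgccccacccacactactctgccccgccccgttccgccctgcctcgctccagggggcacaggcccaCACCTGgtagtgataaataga
Oog3: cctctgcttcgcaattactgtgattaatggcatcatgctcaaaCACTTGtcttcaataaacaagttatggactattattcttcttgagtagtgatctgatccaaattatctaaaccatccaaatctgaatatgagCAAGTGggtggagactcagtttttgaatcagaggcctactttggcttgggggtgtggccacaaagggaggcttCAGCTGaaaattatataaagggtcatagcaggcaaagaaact
Bmp15: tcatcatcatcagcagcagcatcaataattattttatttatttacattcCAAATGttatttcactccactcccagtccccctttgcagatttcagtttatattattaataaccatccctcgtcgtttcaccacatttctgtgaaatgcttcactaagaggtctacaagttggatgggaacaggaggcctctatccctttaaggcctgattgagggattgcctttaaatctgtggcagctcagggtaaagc
Zp3: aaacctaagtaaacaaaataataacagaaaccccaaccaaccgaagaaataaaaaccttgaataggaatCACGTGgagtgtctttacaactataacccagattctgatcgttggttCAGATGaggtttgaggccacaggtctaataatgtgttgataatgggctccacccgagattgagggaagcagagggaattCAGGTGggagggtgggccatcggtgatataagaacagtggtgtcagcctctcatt

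The H1f8 promoter held 1 E-box, 66 bases before the start, and 2 matches to CCAAT, read on the other strand, at 86 and 45 bases. In Tcl1 the E-box lay 21 bases before the RefSeq start. The table puts the upstream edge of Tcl1 at 105222793, inside this window, so by that position the E-box lies within the gene. Oog3 had 3 E-boxes, at 207, 115 and 42 bases, with TATAAA at 29 bases and TAATTG on the other strand at 239 bases. Bmp15 had 1 at 201 bases and a TATAAA on the other strand at 155 bases. Zp3 had 3, at 181, 134 and 55 bases. An E-box stood in 66.0% of all 27025 promoters of this length and in 57.3% of 6019 promoters of genes at 1 FPKM or more. It stood in 62.7% of the 51 promoters matched among ranks 31 to 100, and in 19 of the 22 promoters (86.4%) matched among the 30 highest genes. Several of those 22 belong to families of similar sequence, so they are not separate observations. TATAAA stood in 13.0% of all promoters, in 6.61% of those of genes at 1 FPKM or more and in 2 of the 22. For TAATTG, the element of the oocyte factor NOBOX, the values were 7.34%, 5.05% and 2 of the 22. The 22 promoters were poor in CG dinucleotides, with a median of 2 against 16 for the genes at 1 FPKM or more, and the 51 matched promoters of ranks 31 to 100 had a median of 18. A match describes the letters of this window and is not a measured binding site.

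A few genes held a large part of the fresh transcriptome. The 10 highest genes of each library took 16.8%, 19.3% and 17.2% of summed FPKM in replicates 1, 2 and 3, and the 100 highest took 45.5%, 50.3% and 46.9%. The first 50% of summed FPKM lay in 138, 98 and 126 genes, and 90% of it lay in 2504, 2060 and 2376 genes. Replicate 2 was the most concentrated by each of these measures and replicate 1 the least. The share of counts, which weights each gene by its length, gave a flatter picture, with 35.2% in the 100 highest genes and 287 genes for the first 50% on average.

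**Figure D1:**
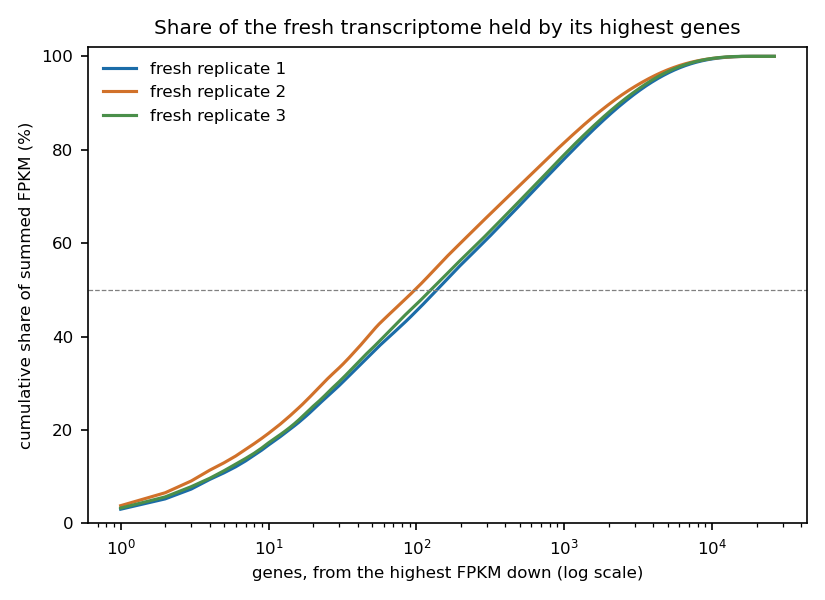
Cumulative share of summed FPKM (%, vertical axis) against the number of genes taken from the highest down (log scale), 1 line for each fresh library, with the dashed line at 50%. The line of replicate 2 lies above the other two and crosses 50% at 98 genes, against 126 in replicate 3 and 138 in replicate 1.

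By mean level, 45 genes stood at 1000 FPKM or more and took 36.6% of the total, and 390 genes from 100 to 1000 FPKM took 31.0%. The 2543 genes from 10 to 100 FPKM took 24.8% and the 5652 genes from 1 to 10 FPKM 6.69%. Below 1 FPKM lay 13425 genes with 0.891% together, and 4303 genes of the table had 0 counts in all 3 fresh libraries. At 1 FPKM or more there were 8797, 8428 and 8500 genes per library, and 7520 in all 3. By mean level 8630 of the 26358 genes reached 1 FPKM, and counts of list members at that level are to be read beside this.

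The most abundant transcript was H1f8, which encodes the oocyte's own linker histone (ENSMUSG00000042279, chromosome 6, 115944938 to 115950231 on the plus strand of GRCm38). It stood at 9173, 12547 and 9718 FPKM in replicates 1, 2 and 3, which is 3.37 ± 0.388% of summed FPKM (SD, n = 3), and led in every fresh library. Bcl2l10, an oocyte member of the BCL2 family of apoptosis regulators, followed at 6340, 9140 and 7085 FPKM. Tcl1, a co-activator of AKT kinase, stood at 6230, 8338 and 6503 FPKM. These 3 genes were highest in replicate 2 and close to each other in replicates 1 and 3. Zbed3, a protein of the subcortical maternal complex, stood at 6693, 7632 and 5313 FPKM, and Oog3, an oogenesin of a leucine-rich repeat family, at 3903, 4802 and 4791 FPKM. The ranges of Bcl2l10, Tcl1 and Zbed3 overlapped with each other, as did those of Oog3 and Gdf9, and every value of Bcl2l10, Tcl1 and Zbed3 lay above every value of Oog3 and Gdf9.

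Ranks 7 to 10 were held by E330021D16Rik, Oas1d, Obox2 and Dppa3, at means of 4206, 3630, 3221 and 3218 FPKM. Oas1d is an oocyte relative of the antiviral oligoadenylate synthetases. Obox2 is an oocyte homeobox factor, at 3275, 4075 and 2312 FPKM. Dppa3, which guards maternal DNA methylation in the zygote, stood at 2836, 3540 and 3278 FPKM. Of the 10 highest genes 9 belonged to the oocyte lists described below, as did 20 of the highest 30 and 33 of the highest 100. These lists were chosen with earlier results of these data known, so the overlap is not an independent observation.

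Among ranks 11 to 30 were Spin1, a reader of histone marks, at 2558, 3144 and 3332 FPKM, Rbbp7, a histone-binding subunit of chromatin complexes, at 2157, 2578 and 2715 FPKM, and Btg4, at 2416, 2724 and 2182 FPKM. Btg4 brings the CCR4-NOT deadenylase to maternal messages after maturation. Gene families filled many of the other places, with Fbxw28, Fbxw14 and Fbxw24 at means of 2653, 2414 and 1787 FPKM and Obox1 and Obox5 at 2119 and 1570 FPKM. Rfpl4, Omt2b, Oosp1 and Tcl1b1, all known from oocytes, had means of 2911, 2077, 1868 and 1744 FPKM. Rank 21 was AU022751, a gene without a given name, at 1906, 1413 and 2330 FPKM, and ranks 14, 18, 25, 27 and 28 were E330034G19Rik, Ccdc69, Mphosph6, Unc50 and D6Ertd527e, at means of 2501, 2120, 1697, 1497 and 1480 FPKM. The last 2 places were a mitochondrial gene and its nuclear copy, described below. Of the 30 genes, 21 were highest in replicate 2 by FPKM, and 17 were lowest in replicate 1 and 12 in replicate 3. Summed FPKM was also highest in replicate 2. As a share of it the 30 genes took 29.4%, 33.2% and 30.0% in replicates 1, 2 and 3.

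**Figure D2:**
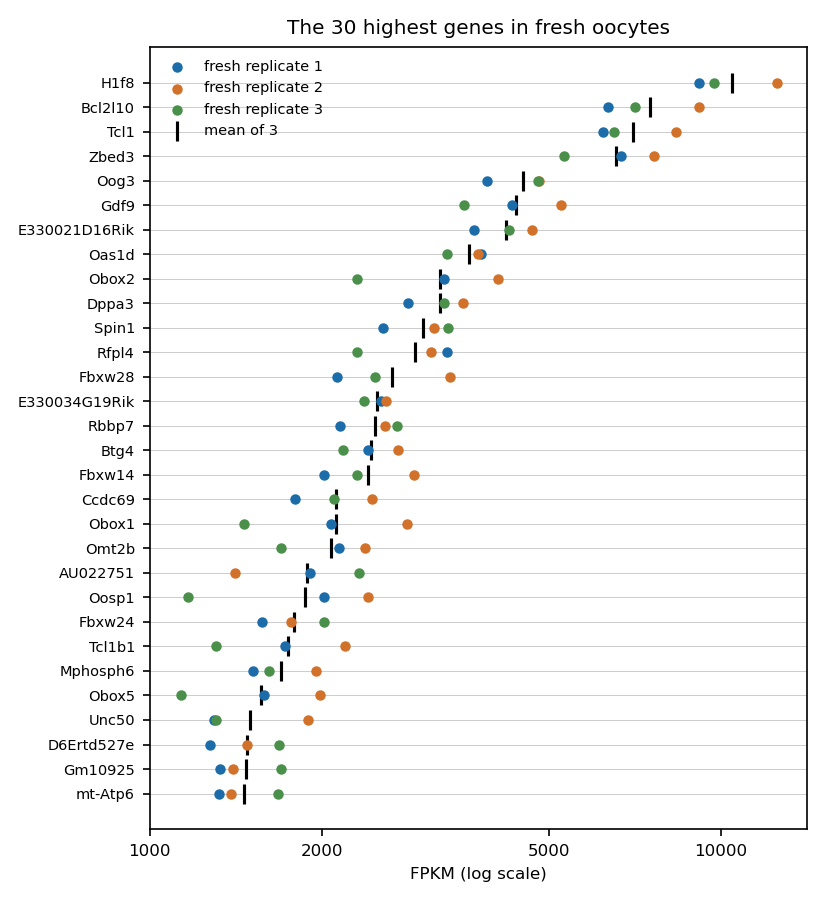
FPKM (log scale) of the 30 genes of highest mean level in fresh oocytes, 1 point per library and a bar at the mean of 3. H1f8 stands alone on the right at 9173 to 12547 FPKM, and most genes below rank 4 overlap with their neighbours.

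For 7 of these 30 genes another gene of the table shared 95% or more identity over at least 50% of the transcript, so their levels are uncertain. Obox2 and Obox1 were 98.8% identical over 1464 bases and overlap on chromosome 7, and Fbxw28 and Fbxw14 were 99.1% identical over 1332 bases. Dppa3 had a pseudogene copy at a mean rank of 1825. Among the highest 100 genes 19 had such a relative.

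Oocyte gene clusters were the largest of the 11 oocyte lists. These gene families are expressed mainly in oocytes, and their 37 members in the table took 12.3 ± 0.744% of summed FPKM (SD, n = 3). Several of the families lie as neighbours, but not all. Oog1 lies on chromosome 12 while Oog2, Oog3 and Oog4 lie on chromosome 4, and the 10 listed Nlrp genes of chromosome 7 span 101900 kb. As a share of counts, not scaled by gene length, they took 7.85%. Such shares stand in parentheses below for whole lists where they differ over 1.5-fold. Shares of single families are given by FPKM only. All 37 reached 1 FPKM and 27 reached 100 FPKM, against 435 of the 26358 genes of the table at 100 FPKM, and the list median was 340 FPKM against 0.199 for all genes. The lowest members were Nlrp9b, Fbxw13 and Nlrp4c at means of 28.8, 16.3 and 2.92 FPKM. The 12 Fbxw genes, which encode F-box proteins with WD-40 repeats, lie within 607 kb of chromosome 9 (109139447 to 109746089) and took 3.09 ± 0.367%. The 6 Tcl1 genes lie within 76.8 kb of chromosome 12 (105146014 to 105222793) and took 3.65 ± 0.430%, and the 4 Oas1 genes within 135 kb of chromosome 5 took 1.66 ± 0.0558%. The families did not share 1 order of libraries. Of 12 Fbxw genes 11 were highest in replicate 2 and 8 lowest in replicate 1, of 6 Tcl1 genes 5 were highest in replicate 2 and 5 lowest in replicate 3, and of 10 Nlrp genes at 10 FPKM or more 7 were highest in replicate 3.

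Maternal factors of the early embryo, 26 genes, took 10.8 ± 0.953% of summed FPKM (6.80% of counts), with H1f8, Bcl2l10, Gdf9, Dppa3, Spin1 and Btg4 in front. Of these 26 genes 25 reached 1 FPKM and 10 reached 100 FPKM, and the median was 61.1 FPKM. Dnmt3l, a cofactor of de novo DNA methylation, stood at 3.01, 3.67 and 3.25 FPKM, and Ube2a, a ubiquitin-conjugating enzyme, at 4.46, 3.20 and 1.60 FPKM. Zfp36l2, an RNA-binding decay factor, was the lowest at 0.232, 0.283 and 0.0562 FPKM (75, 89 and 17 counts).

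Secreted factors spanned 3 orders of magnitude. The list of 8 genes took 2.51 ± 0.473% of summed FPKM (1.42% of counts), most of it from Gdf9 and the oocyte secreted proteins. Oosp1 stood at 2022, 2415 and 1167 FPKM, Oosp3 at 1158, 1457 and 754 FPKM and Oosp2 at 274, 185 and 101 FPKM. All 3 Oosp genes, neighbours within 64.6 kb of chromosome 19, were lowest in replicate 3. Kit, the receptor through which follicle cells signal to the oocyte, stood at 7.96, 4.09 and 10.2 FPKM, Bmp6 at 11.4, 3.49 and 5.35 FPKM and Fgf8 at 2.03, 2.44 and 3.28 FPKM.

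The zona pellucida and sperm-binding genes were below Gdf9 and Bmp15 in every library, with 0.0904 ± 0.0125% of summed FPKM for 7 genes. Zp1 stood at 36.9, 39.8 and 35.5 FPKM and Zp2 at 26.1, 22.3 and 21.9 FPKM, each within a narrow range. Zp3 was above both in every library but varied 2.21-fold between them. Astl, the cortical granule protease that cleaves ZP2 after fertilization, stood at 114, 94.2 and 94.8 FPKM and Izumo1r, the egg receptor of sperm IZUMO1, at 29.7, 28.2 and 14.8 FPKM. The tetraspanin Cd9, needed for fusion with sperm, was lower at 2.61, 5.97 and 2.07 FPKM, and Cd81 lay at 1.77, 1.82 and 1.47 FPKM.

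Of 18 oocyte transcription factors 14 reached 1 FPKM, and the list took 2.35 ± 0.545% (1.52% of counts). Obox2, Obox1 and Obox5 made up most of it, and Obox7 stood at 186, 404 and 190 FPKM. All 4 were highest in replicate 2. The master regulators of follicle formation and growth were much lower, with Nobox at 37.7, 33.8 and 40.5 FPKM and Figla at 0.955, 1.51 and 0.587 FPKM (73, 113 and 42 counts). Figla lies outside the naming rule and was chosen after its values were seen. Pou5f1, the pluripotency factor, stood at 39.7, 39.2 and 21.5 FPKM. Sohlh1, which acts early in oocyte growth, and Obox6 had 0 counts in all 3 libraries, and Obox8 had 46, 0 and 0 counts.

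Zbed3 stood apart from the other components of the subcortical maternal complex and lattices, a protein assembly under the oocyte's surface that the embryo needs for its first divisions. The other 7 components of the list lay between means of 7.72 and 257 FPKM. Nlrp4f stood at 254, 230 and 288 FPKM, Ooep at 117, 137 and 56.7 FPKM and Padi6, of the lattices, at 67.1, 48.1 and 62.0 FPKM. Nlrp5 (55.8, 46.2 and 51.5 FPKM) and Nlrp2 (13.7, 13.7 and 13.9 FPKM) were even, while Khdc3 stood at 9.85, 9.26 and 4.06 FPKM, lowest in replicate 3, and Tle6 had a mean of 28.3 ± 6.67 FPKM (SD, n = 3).

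**Figure D3:**
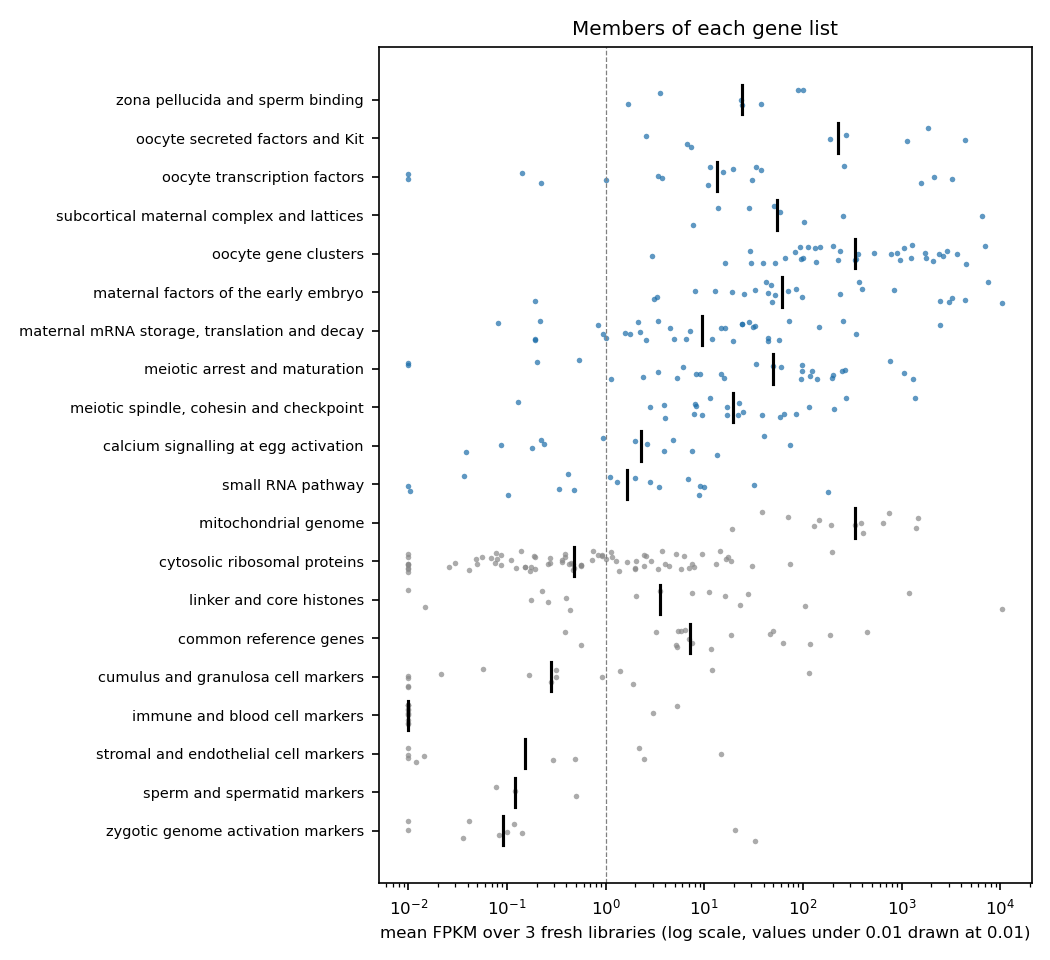
Mean FPKM over the 3 fresh libraries (log scale) of every member of 20 gene lists, 1 point per gene, blue for the 11 oocyte lists, with a black bar at the list median and a dashed line at 1 FPKM. Oocyte gene clusters have a median of 340 FPKM, cytosolic ribosomal proteins one of 0.476 FPKM, and most markers of other cells lie below 1 FPKM.

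Genes of maternal mRNA storage, translation and decay took 1.18 ± 0.0335%, and 27 of 34 reached 1 FPKM. After Btg4 came Dazl, a regulator of translation, at 286, 453 and 291 FPKM, and Cnot7, a catalytic deadenylase, at 262, 237 and 265 FPKM. The decapping cofactor Dcp1a stood at 151, 110 and 174 FPKM, Lsm14a of mRNA granules at 89.4, 49.8 and 79.5 FPKM and Igf2bp2 at 63.9, 49.9 and 56.8 FPKM. Ybx2, known as a packaging protein of stored mRNA, was low at 1.63, 0.580 and 0.588 FPKM (281, 99 and 95 counts) and was named after its values were seen. Cpeb2 and Tut4 were lowest with Zfp36l2, at means of 0.193 and 0.0808 FPKM.

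Of 29 genes of meiotic arrest and maturation 25 reached 1 FPKM and 10 reached 100 FPKM, with 1.59 ± 0.124% of summed FPKM. Cks2, a subunit of cyclin-dependent kinases, stood at 1347, 1522 and 1068 FPKM and Ccnb1, the cyclin of maturation-promoting factor, at 879, 1175 and 1141 FPKM. Mos, the kinase that holds the mature egg in metaphase, stood at 534, 1311 and 458 FPKM, so replicate 2 was far above the other libraries. Cdc20, Map2k1 and Wee2 had means of 268, 250 and 200 FPKM, each varying less than 1.5-fold. At the low end Cdc25c had 147, 121 and 4 counts, and Gpr12 and Adcy3 had 0 counts in replicates 1 and 3 and 7 and 10 counts in replicate 2.

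The spindle, cohesin and checkpoint list had 21 of 22 members at 1 FPKM or more and took 0.762 ± 0.0312%. Pttg1, the securin that guards sister chromatids, stood at 1221, 1593 and 1274 FPKM. Bub1b, of the spindle checkpoint, stood at 273, 171 and 376 FPKM and Aurkc, the meiotic Aurora kinase, at 184, 284 and 151 FPKM, with replicate 2 lowest for the first and highest for the second. Aurka lay at 86.6, 94.1 and 71.7 FPKM, Mad2l1 at 107, 119 and 117 FPKM and the cohesin core subunit Smc3 at 62.9, 65.3 and 64.4 FPKM. Aurkb and Bub1 were low, at means of 2.85 and 3.88 FPKM, and the meiotic cohesin Stag3 had 91, 13 and 94 counts.

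Calcium signalling and small RNA genes took little of the total. Of 14 calcium genes 8 reached 1 FPKM, with a share of 0.0486 ± 0.00836% (0.0996% of counts). Ppp3r1, the regulatory subunit of calcineurin, stood at 84.6, 80.8 and 56.8 FPKM and Camk2g, the kinase that drives egg activation, at 47.1, 40.6 and 34.4 FPKM. Itpr1, the calcium release channel of the endoplasmic reticulum, lay at 2.49, 1.14 and 2.37 FPKM and was named after its values were seen. In the small RNA list 11 of 18 genes reached 1 FPKM, with 0.0845 ± 0.0161% (0.153% of counts). The germ cell helicase Ddx4 stood at 184, 143 and 217 FPKM and Dicer1, which cuts small RNAs, at 32.7, 37.2 and 25.1 FPKM. Piwil1 stood at 11.2, 6.13 and 12.4 FPKM, Ago1 had 24, 0 and 0 counts and Piwil4 had 0 counts in every fresh library.

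Together the 218 genes of the 11 oocyte lists took 31.8 ± 2.55% of summed FPKM. They were 218 of the 26358 genes of the table. Because the lists were chosen with earlier results of these data known, this share is not an independent observation. By list, replicate 3 had the lowest share in 7 of 11 and replicate 2 the highest in 6 of 11.

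Genes that run basic functions of most cells ranged widely. Cytosolic ribosomal proteins, usually among the most abundant messages of a cell, had a median of 0.476 FPKM, with 32 of 82 at 1 FPKM or more and 0.155 ± 0.0232% of the total (0.0787% of counts). Rps27l stood at 206, 228 and 159 FPKM and Rplp0 at 19.3, 19.6 and 17.3 FPKM. Reads of ribosomal protein genes can be shared with processed pseudogenes, so single values and the median and share of the list are uncertain. Of 18 common reference genes 16 reached 1 FPKM. Ubb, a polyubiquitin gene, was the highest at 248, 501 and 587 FPKM (rank 91), lowest in replicate 1. Gapdh, the glycolytic enzyme often used for normalization, was the lowest at 0.563, 0.376 and 0.231 FPKM (212, 139 and 80 counts), and Eef1a1 varied 7.09-fold at 6.49, 2.30 and 0.914 FPKM. Hprt, which salvages purines, stood at 188, 185 and 194 FPKM and Ywhaz at 124, 113 and 113 FPKM, while Actb lay at 46.9, 58.6 and 34.7 FPKM.

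Among 17 linker and core histone genes H1f8 was followed by H3f3b, a replacement histone H3.3, at 979.5, 1230 and 1380 FPKM, and by H1f0 at 94.7, 75.8 and 142 FPKM. The other H3.3 gene H3f3a lay at 22.8, 30.8 and 15.6 FPKM, and 7 of the 17 genes were below 1 FPKM. Many core histone messages carry no poly(A) tail, and the libraries were selected on poly(A). Of 10 markers of zygotic genome activation 2 reached 1 FPKM, Zfp750 at 36.6, 29.3 and 31.6 FPKM and Nelfa at 23.7, 24.0 and 13.4 FPKM. The list median was 0.0918 FPKM, against 0.199 for all genes. Zscan4d had 63, 8 and 17 counts and Zfp352 had 0 counts in every library.

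Protein-coding genes took 91.6 ± 0.294% of summed FPKM (SD, n = 3), pseudogenes 4.16 ± 0.132%, long non-coding genes 3.39 ± 0.137% and short RNA genes 0.622 ± 0.204%. By share of counts protein-coding genes took 96.4 ± 0.0777%, pseudogenes 1.31%, long non-coding genes 2.04% and short RNA genes 0.145%. Of 3732 long non-coding genes 589 reached 1 FPKM, as did 722 of 4474 pseudogenes and 7209 of 16314 protein-coding genes. The highest long non-coding genes were Gm1965 on chromosome 6 at 1429, 1428 and 999 FPKM, C86187 on chromosome 7 at 852, 728 and 796 FPKM and Gm1070 on chromosome 6 at 638, 573 and 811 FPKM. Each was within the 100 highest genes in mean level. Gm11381 and AA545190 followed at means of 386 and 363 FPKM. Gm4350, a processed pseudogene of Oog3 with 99.3% identity, stood at 387, 470 and 514 FPKM, while Oog3 itself stood at rank 5.

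Some genes of the mitochondrial genome and their nuclear copies on chromosome 1 had nearly equal counts. The 13 mitochondrial protein genes took 1.94 ± 0.324% of summed FPKM (0.594% of counts), with mt-Atp6, a subunit of ATP synthase, at 1321, 1387 and 1680 FPKM and mt-Cytb, of complex III, at 1232, 1278 and 1728 FPKM. In counts mt-Atp6 had 81387, 84101 and 95774, and Gm10925, an unprocessed pseudogene on the minus strand of chromosome 1 (24613974 to 24614651), had 81568, 84515 and 96486. The sequences of the pair were identical over 678 bases, so their reads cannot be told apart. The same held for mt-Co2 with 28608, 23615 and 20931 counts against 28394, 23442 and 20767 in Gm28661, and for mt-Co3 with 29046, 26931 and 24547 against 29339, 27220 and 24822 in Gm28437. In mt-Nd4l there were 3807, 2987 and 3266 counts against 4132, 3168 and 3534 in Gm10222, identical over 294 bases. Others of the 7 copies that lie close together on chromosome 1 were far from their mitochondrial gene in counts. Gm29216 aligned with only 483 of the 1545 bases of mt-Co1, and Gm28439 with 876 of the 1378 bases of mt-Nd4. Their counts therefore do not cover equal lengths, and at 99.8% and 100% identity reads of the aligned stretches may be shared. Gm29216 had 21305, 9687 and 13711 counts against 108253, 70071 and 84016 in mt-Co1, Gm28439 had 6331, 4627 and 5911 against 28244, 16799 and 24007 in mt-Nd4, and Gm28438 had 1588, 976 and 1111 against 743, 480 and 514 in mt-Nd3. Nuclear copies of mitochondrial genes, 11 genes of the table, took 0.933 ± 0.126% of summed FPKM, out of 4.16% for all pseudogenes. The lowest mitochondrial gene, mt-Nd3, stood at 23.6, 15.5 and 17.6 FPKM, and mt-Nd6 varied 2.76-fold at 53.2, 19.2 and 42.4 FPKM.

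Abundant transcripts were short. The median length of the longest coding transcript was 3272 bases for protein-coding genes of 1 to 10 FPKM, 2845 bases at 10 to 100 FPKM, 1985 bases at 100 to 1000 FPKM and 1598 bases at 1000 FPKM or more. FPKM divides by gene length, so length enters the measure itself. GC content moved little, with medians of 48.8% in the first group and 46.0% in the last.

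The 3 fresh libraries agreed closely for abundant genes and less for rare ones. Across all genes, which are not independent replicates, Pearson's r of log2(FPKM + 1) was 0.979, 0.979 and 0.978 for the pairs of replicates 1 and 2, 1 and 3, and 2 and 3, and Spearman's rho was 0.892, 0.884 and 0.891. The median coefficient of variation was 27.7% for genes of 1 to 10 FPKM, 19.3% for 10 to 100 FPKM, 17.7% for 100 to 1000 FPKM and 17.3% for 1000 FPKM or more. It thus levelled off above 100 FPKM, where counts are high and counting error is small. Between replicates 1 and 2 the SD of the log2 ratio was 0.43 at 100 to 1000 FPKM, against 0.01 from counting alone. Counts of each pair lay further apart than counting noise, with a chi-square of 199.9 to 277 per degree of freedom, and each library was counted as its own sample. The common biological coefficient of variation from edgeR, the spread between libraries beyond counting error, was 0.402 over 13204 genes. It depended on level: with these genes cut by level into 4 groups of equal size, the median of edgeR's level-dependent estimate was 0.545 in the lowest group and 0.255 in the highest.

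The 100 highest genes of each fresh library had 79 genes common to all 3 libraries. Any 2 fresh libraries shared 84 to 86 of their 100 highest genes. Detection was less even, with 13245 genes at 10 counts or more in all 3 libraries and 2939 in 1 library only.

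Of 2978 genes with a mean of at least 10 FPKM, 375 (12.6%) were more than 2-fold apart between the highest and the lowest library, and of 435 genes at 100 FPKM or more 35 were. In these 35 genes replicate 3 was the lowest library in 20 cases, while in the 375 genes replicate 2 was the lowest in 180 and replicate 3 in 131. The most variable was Gm10241, a processed pseudogene, at 288, 255 and 44.2 FPKM. Bod1, needed for chromosome biorientation, stood at 385, 194 and 67.9 FPKM and Cited2, a transcriptional co-regulator, at 217, 252 and 78.9 FPKM. Each of these 3 was lowest in replicate 3. The 2 pseudogenes Gm12346 and Ubb-ps separated replicate 1 from the others in opposite directions, at 256, 53.2 and 60.2 FPKM and at 90.7, 286 and 282 FPKM. Gm12346 is 99.5% identical to Hsp90aa1 over 2255 bases. Gm23935, annotated as a miRNA of 57 bases, stood at 653, 228 and 175 FPKM. Ccdc117 stood at 237, 144 and 400 FPKM and Siah2, a ubiquitin ligase, at 522, 352 and 192 FPKM, and Mos and Oosp2, given above, were the other two of the 10.

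At the steady end, Cept1, which makes membrane phospholipids, stood at 123, 126 and 127 FPKM, Neil3, a DNA glycosylase, at 148, 154 and 157 FPKM and Eif4e3, a cap-binding protein, at 458, 473 and 438 FPKM. Hprt and Oog1 (546, 507 and 526 FPKM) were also among the 10 steadiest, with Zcchc10 and the genes Gm13023, Gm2042, Gm839 and Gm47182. Gm2042, the steadiest, had a highest to lowest ratio of 1.03 and is a close copy of Oog1 (99.6% identity), so reads may be shared between them.

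**Figure D4:**
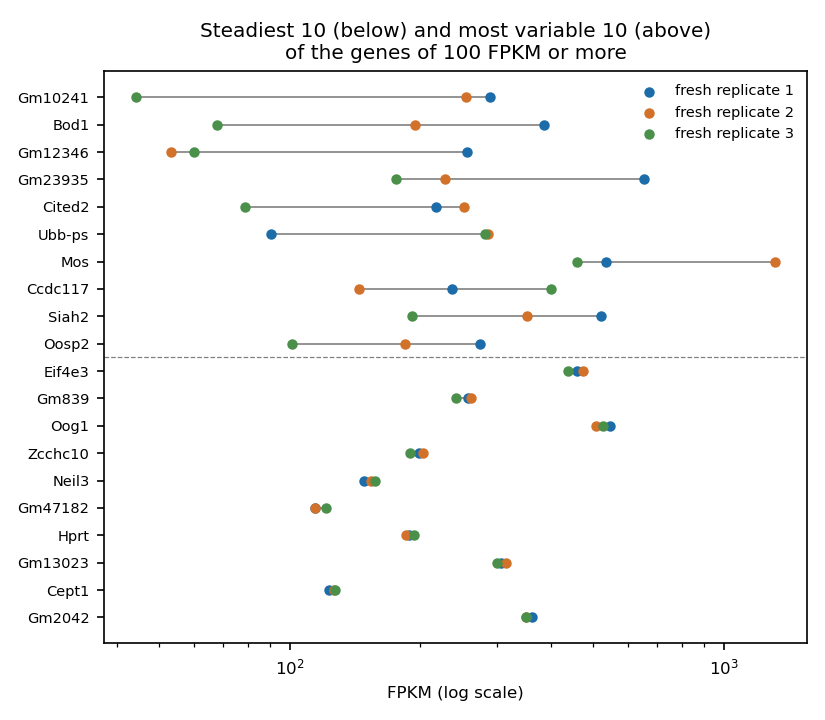
FPKM (log scale) in the 3 fresh libraries of the 10 steadiest (below the dashed line) and the 10 most variable genes (above it) among those of 100 FPKM or more, with a line from the lowest to the highest library. Replicate 3 lies at the low end for Gm10241, Bod1, Cited2, Siah2 and Oosp2, and replicate 2 at the high end for Mos.

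Deviations of single libraries went with transcript length. Across 2975 genes of at least 10 FPKM, the deviation of a gene from its mean over the 3 libraries had a Spearman's rho with length of 0.17 in replicate 1, -0.47 in replicate 2 and 0.34 in replicate 3, as a description across genes. With the genes cut by length into 4 groups of equal size, the median deviation in replicate 2 was 0.23 in the shortest group and -0.19 in the longest, on the log2 scale. Replicate 3 showed the reverse for short genes, with -0.19 in the shortest group. The part of length in the results above was not tested.

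Fresh libraries were compared with the other groups in 6 whole-library measures, each tested against both groups by an exact two-sided permutation test, which cannot go below p = 0.1 with 3 libraries against 3. For 11 of the 12 the ranges of the groups overlapped. The 100 highest genes took 47.6 ± 2.49% of summed FPKM in fresh oocytes, against 46.7 ± 0.813% in cryopreservation-1 (exact permutation p = 0.9) and 44.9 ± 0.878% in cryopreservation-2 (exact permutation p = 0.2; SD, n = 3 each). The effective number of genes, which is the number of equally abundant genes that would give the same evenness, was 1123, 867 and 1052 in fresh and 1141, 1172 and 1232 in cryopreservation-2. These ranges did not overlap (exact permutation p = 0.1, or 0.6 after adjustment over 12 tests), and replicate 1 of fresh lay close to replicate 1 of cryopreservation-2. In cryopreservation-1 it was 1046, 1032 and 1122, within the fresh range.

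At an equal depth of 49337232 counts, the smallest library's total, the fresh libraries had 17986 ± 931 genes with a count, against 18935 ± 984 for cryopreservation-1 and 19034 ± 1219 for cryopreservation-2 (exact permutation p = 0.3 for each). Genes that are not protein coding took 8.37 ± 0.294%, 8.22 ± 0.305% and 9.06 ± 0.476% of summed FPKM (exact permutation p = 0.6 and p = 0.2 against fresh). The X chromosome took 2.83 ± 0.359%, 2.77 ± 0.359% and 2.65 ± 0.335% (p = 0.7 and p = 0.6, exact permutation). The FPKM-weighted mean transcript length was 2150 ± 96.9, 2151 ± 76.6 and 2079 ± 45.8 bases (exact permutation p = 1 and p = 0.3). After adjustment each of the 12 p-values was at least 0.6, and a p that misses the threshold in so small a design does not show that the groups were alike.

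**Figure D5:**
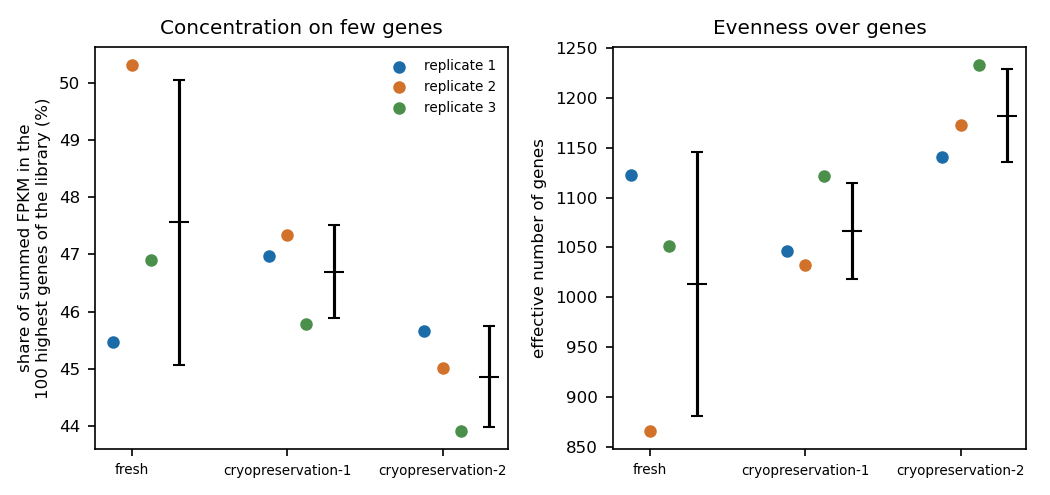
Share of summed FPKM in the 100 highest genes of each library (left, %) and effective number of genes (right) for the 9 libraries, 1 point per library and the mean ± SD of 3 beside each group. Neither vertical axis starts at 0. Fresh replicate 2 has the highest share (50.3%) and the lowest effective number (867) of all 9 libraries.

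Most of the 30 highest genes were also among the highest of the other groups, with some changes of rank. Of the 30 highest genes in fresh, 27 were among the 30 highest of cryopreservation-1 and 23 of cryopreservation-2, and all 30 were among the 100 highest of both. H1f8 was first in each group, at 10310 ± 1935 FPKM in cryopreservation-1 and 11111 ± 2421 FPKM in cryopreservation-2 against 10479 ± 1812 FPKM in fresh (SD, n = 3 each). A fresh library shared 79 to 92 of its 100 highest genes with a cryopreservation-1 library and 74 to 86 with a cryopreservation-2 library, beside the 84 to 86 between fresh libraries. In mean level Obox2 stood at rank 9 in fresh libraries against ranks 10 and 21 after cryopreservation-1 and cryopreservation-2, Rfpl4 at 12 against 13 and 25, and Fbxw24 at 23 against 22 and 9. These 3 genes were named for their change in rank after it was seen, and the changes were not tested. The median overlap was 87 with cryopreservation-1 and 81 with cryopreservation-2.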

How the data were processed

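Poly(A) RNA of 9 mouse oocyte libraries was sequenced, with strand-marked cDNA per the labels' protocols. The submitters' processing notes name cutadapt 1.9, HISAT2 2.0.4, StringTie 1.3.4d and the build GRCm38. Which tool counted the reads, with which strand setting and annotation, is not stated in these sources. The table that the authors deposited holds raw read counts and FPKM values per library for 26358 genes, and every value column matched 1 sample. The deposited FPKM followed the counts with 1 factor per library (SD of the log2 ratio between libraries 0.000624 or less). Without a known strand setting, reads of overlapping genes cannot be told apart.

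Positions are those of the table. Biotype, length and GC content came from GENCODE M21 (26286 identifiers matched), the length being that of the longest protein-coding transcript, or else the longest. Levels used FPKM, and correlations log2(FPKM + 1). Similar transcripts were found with BLAST 2.17.0 at 95% identity or more over 50% of the query. Promoters were matched by the gene identifiers in the table and credited to RefSeq on GRCm38.p6. Dispersion came from edgeR 4.0.16 (TMM, filterByExpr at its minimum count, 10, and minimum total count, 15), checked on simulated data, with DESeq2 1.42.0 size factors as an alternative. Comparisons used exact two-sided permutation tests with Benjamini-Hochberg adjustment over 12 tests, with Python 3.11.15 and scipy 1.17.1.

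The genes named are the 30 highest, up to 6 highest and 3 lowest of each of 20 lists (all of lists of up to 8), the 10 most and 10 least variable at 100 FPKM or more, the 10 highest genes that are not protein coding, and Gdf9, Bmp15 and Zp3. The promoter set was widened after the table was read. Lists and members were chosen with earlier results of these data known. The labels do not say that equal replicate numbers pair the libraries. Replicate number was used as a block in an alternative setting only. Deviations from the group means of same-numbered fresh and cryopreservation-1 libraries correlated at 0.296, 0.455 and 0.590 across 4711 genes. These 3 values are not independent, since each deviation is taken from the mean of its group. Pairing was not tested. No test of this design could pass 0.05, with or without the block. Counting intervals cover counting error only, since molecular identifiers were not described.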

Additional observations from a re-analysis of the deposited data

How the results depend on the processing

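Shares of counts in place of FPKM lowered the top-10 share from 17.8% to 11.6%, the top-100 share from 47.6% to 35.2% and the share of genes that are not protein coding from 8.37% to 3.57%, and raised the number of genes holding 50% of the total from 121 to 287 and the effective number from 1014 to 1746. Counts divided by GENCODE transcript lengths, an alternative added after seeing the data, gave 15.2%, 43.9% and 6.65% for the 3 shares, and kept 7 of the 10, 27 of the 30 and 89 of the 100 highest genes. The share of genes that are not protein coding was 8.05% over genes of at least 1 FPKM in all 3 libraries and, in another added alternative, 7.99% without transcripts under 200 bases. As shares of counts all 20 list shares moved by more than the spread between libraries, as did 12 with GENCODE lengths. A level of 0.1 FPKM or 10 counts gave 14685 or 15685 genes, against 8575 at 1 FPKM. The mean Pearson correlation was 0.960 with a pseudocount of 0.1, 0.963 over genes of at least 1 FPKM in all 3 and 0.889 as Spearman's rho, and 0.978 to 0.979 with 1 library left out. Genes more than 2-fold apart numbered 2293 from 1 FPKM and 35 from 100 FPKM, and 133 to 202 with 1 fresh library left out, since 2 libraries span less than 3. The biological coefficient of variation was 0.920 with no filter beyond 1 count.

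The exact tests against the other groups could not pass 0.05 under any setting, so their p-values say nothing of stability. With 1 library left out, differences of fresh minus cryopreservation-1 ran from -0.514 to 1.91 for the top-100 share, -107 to 20.5 for the effective number, -0.0229 to 0.256 for the share of genes that are not protein coding, -0.129 to 0.251 for the X chromosome and -36.9 to 54.1 bases for the weighted length, and the X chromosome difference from cryopreservation-2 ran from -0.00876 to 0.356. The sign turned without fresh replicate 2 for the top-100 share, the effective number and the length (the length also without cryopreservation-1 replicate 3), without fresh or cryopreservation-1 replicate 1 for genes that are not protein coding, without fresh replicate 3 or cryopreservation-1 replicate 1 for the X chromosome, and without fresh replicate 3 for its difference from cryopreservation-2. Other differences kept their sign but moved: fresh minus cryopreservation-2, 2.70 for the top-100 share, was 1.32 to 3.75, -168 for the effective number was -223 to -94.7, and -1048 for the genes with a count at equal depth was -1732 to -533. Without fresh replicate 2 the first of these was 1.32 and the second -94.7, and the third was -533 without fresh replicate 3, -562 without cryopreservation-2 replicate 2 and -1732 without cryopreservation-2 replicate 1. The number at equal depth against cryopreservation-1, -949, was -433 without fresh replicate 3 and -1517 without cryopreservation-1 replicate 3, and the length difference from cryopreservation-2, 71.2 bases, was 126 without fresh replicate 2 and 35.3 without fresh replicate 3. The share of genes that are not protein coding also turned with shares of counts, to -0.0252. The cause was not tested. With the replicate block, an exact sign-flip permutation test over 3 pairs that cannot go below p = 0.25, each mean difference is the same by construction, for example 0.862 for the top-100 share against cryopreservation-1 and 2.70 against cryopreservation-2. Same-numbered fresh and cryopreservation-2 libraries correlated at -0.223, 0.190 and -0.449, and 1 of the 3 correlated best with its own number. With cryopreservation-1 all 3 did, and whether the numbers mark pairs was not tested. Depth limits statements on genes of few counts.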

Other observations

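The store of messages was not spread evenly over the chromosomes. Chromosome 6 held 5.07% of the genes of the table but took 10.8 ± 0.500% of summed FPKM, and chromosome 9 held 5.40% of the genes and took 10.7 ± 0.566% (SD, n = 3 fresh libraries). On chromosome 6 lie H1f8, E330021D16Rik and Dppa3, and on chromosome 9 Bcl2l10, Btg4 and the Fbxw genes. Of the 100 highest genes 11 lie on chromosome 6 and 9 on chromosome 9. The X chromosome held 4.01% of the genes and took 2.83 ± 0.359%, with Rbbp7 and AU022751 as its 2 genes in the highest 100. Chromosomes 16, 17 and 18 had none.

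By share of counts, which is not per length and so follows the reads rather than the transcripts, Zbed3 came first with 1.64 ± 0.278% of all counts, ahead of Spin1 with 1.52 ± 0.203%, Tcl1 with 1.46 ± 0.222% and H1f8 with 1.41 ± 0.229%. These 4 ranges overlap. Of the protein-coding genes among the highest 100, 64.2% had no pathway entry in the deposited table's KEGG column, against 60.3% of those at 1 FPKM or more.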
